A study of Drosophila melanogaster with 2 samples.

Results

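The miR-92 seed family of Drosophila melanogaster consists here of the products of 6 hairpins, mir-92a and mir-92b of one locus and mir-310, mir-311, mir-312 and mir-313 of another. Members were chosen by hairpin name, with earlier results of these data known. Of 12 possible arms, 9 were listed in the deposited counts, out of 240 known mature products in all. The control listed 8 of them and the ethanol library all 9: dme-miR-92a-3p, dme-miR-92a-5p, dme-miR-92b-3p, dme-miR-92b-5p, dme-miR-310-3p, dme-miR-311-3p (ethanol library only), dme-miR-312-3p, dme-miR-312-5p and dme-miR-313-5p, written below without the species prefix. Both groups were adult females of Canton-S, a standard wild-type stock, 3 to 5 days old. About 180 of them were pooled for each sample, and the frozen heads were sieved from the bodies. Control flies received 45 minutes of plain air. Ethanol flies received 15 minutes of ethanol vapour, which sedated all of them, followed by 30 minutes of plain air. There was 1 library per group, so no difference below has a replicate check, no p-value was computed, and a difference between libraries cannot be told apart from one between treatments.

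MicroRNAs are small RNAs, cut from a hairpin with a 5p and a 3p arm, that guide the silencing of messenger RNAs. Target choice rests mainly on the seed, bases 2 to 8, so products with the same seed are taken to share many targets. The miR-92 family is conserved between flies and vertebrates. In flies, mir-92a and mir-92b lie within jigr1, a gene for a putative DNA-binding protein, and their repression of jigr1 is known to support the self-renewal of neuroblasts, the stem cells of the brain. miR-92a is also known as a modulator of the excitability of clock neurons. The mir-310 cluster is known to limit synaptic strength at the larval neuromuscular junction and to act in the germline and soma of the gonads.

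The 3p sequences of mir-92a and mir-92b are shown because the seed defines the family, with the 5p sequences of the same hairpins for contrast. They were read from the deposited tables, which write T for U, and are given 5′ to 3′ with the seed in capitals.
miR-92a-3p: cATTGCACttgtcccggcctat
miR-92b-3p: aATTGCACtagtcccggcctgc
miR-92a-5p: aGGACGGGaaggtgtcaacgtt
miR-92b-5p: aGGCCGTGcccagtgcttatttg
Both 3p products carried the seed ATTGCAC, while the seeds of the 5p products differed from it and from each other. Counted from 1 at the 5′ end, miR-92b-3p differed from miR-92a-3p by C1A, T10A, A21G and T22C, so 18 of 22 positions were identical. The 3p products of mir-310, mir-311 and mir-312 carried the same seed. Over the 5 listed 3p products, 13 positions held the same base in all, the 7 of the seed and the 6 from position 15 to 20. The bases that varied lay at position 1, at positions 9 to 14 and at positions 21 and 22. miR-92a-3p was identical to miR-310-3p at 17 positions, to miR-312-3p at 16 and to miR-311-3p at 15. miR-310-3p and miR-312-3p, which come from the same cluster, shared only 14. No known product outside the family had this seed, and none of 99 candidate miRNAs named by the authors held these letters at any position. Of 209 different seeds in the tables, 1 had more products than this one.

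The family's 2 loci differ in their setting. In the Ensembl annotation of the BDGP6 assembly, mir-92a is at 3R:25646506-25646600 and mir-92b at 3R:25651398-25651497, both on the plus strand and 4797 bases apart. The annotation has jigr1 at 3R:25637843-25651874 on the same strand. mir-92a lay in the first intron of 6 of the 8 jigr1 transcripts, and the other 2 start downstream of it. mir-92b lay in the 3′ untranslated region of 1 jigr1 transcript, beyond the end of the other 7, and inside lncRNA:CR45917, a separate non-coding gene listed in RefSeq also as pri-mir-92b. The 4 hairpins of the mir-310 cluster are on chromosome arm 2R, all on the minus strand. The deposited counts were made on BDGP5 and carry no coordinates.

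**Figure D1:**
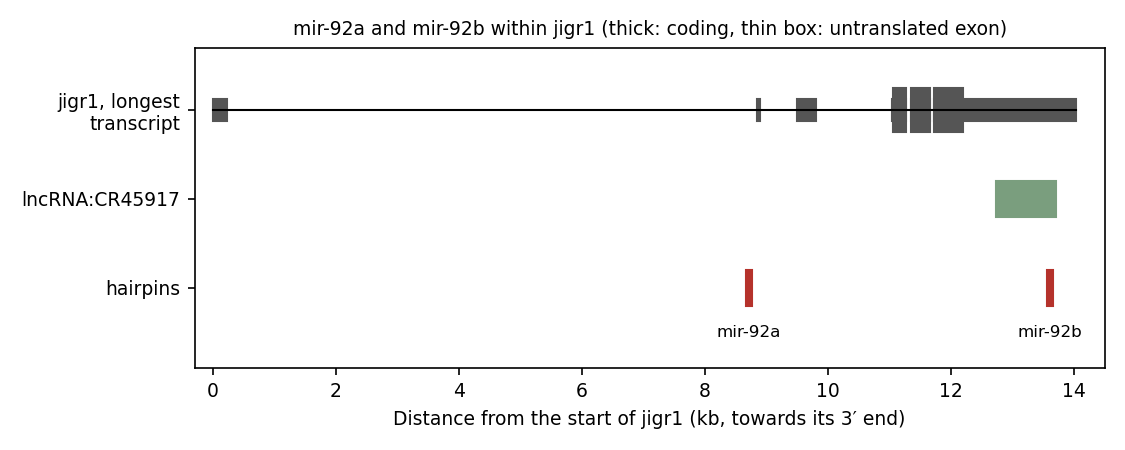
Positions of mir-92a and mir-92b within jigr1 in the BDGP6 annotation. The x axis is the distance from the start of jigr1 in kb; boxes are exons of the longest jigr1 transcript (thick where coding), the lncRNA gene and the hairpins. mir-92a lies in the first intron and mir-92b in the last exon and in the lncRNA.

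The control library held 17337082 reads and the ethanol library 17600983. Of these, 13692046 and 13128478 were assigned to known mature miRNAs, and levels below are CPM, counts per 1000000 of those reads. Only products with 5 or more reads were listed, so an unlisted arm had fewer than 5 reads or was not counted. All intervals are exact, at 95%, and hold counting error alone, and copies of a molecule made by PCR, counted as separate reads, would make them too narrow. A sample of whole heads also cannot tell fewer cells of a type apart from less RNA per cell. Being listed takes only 5 reads and so does not check the tissue, and the 2 muscle hairpins were listed as well. All 10 hairpins of the neural and photoreceptor list were listed, with 282338 control and 340007 ethanol CPM in sum. Most of that sum was miR-184-3p with 3498548 and 4119778 reads (1.23, 1.226 to 1.230), and the other 19 products had 26822 and 26203 CPM (0.977, 0.972 to 0.981). The neuronal miR-124-3p, picked out once its values were known, was 1.93-fold lower (1.91 to 1.95), from 111087 control to 55203 ethanol reads. It is among those 19 products, whose summed reads went from 367243 to 344000, a smaller fall than its own. The sum of the others was therefore higher in the ethanol library. Of the list's 18 products with enough reads to compare, 12 had a ratio above 1, but 7 under the authors' library totals.

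The family was a minor part of the head miRNAs. All its products together had 1662 control and 1785 ethanol reads, or 121.4 CPM (115.6 to 127.4) and 136.0 CPM (129.7 to 142.4), a ratio of 1.12 (1.05 to 1.20). The seed pool, the 5 listed 3p products, had 48.3 and 75.4 CPM. Pooled by seed over all products, it took place 91 by control reads and 86 by ethanol reads among 209 seeds. Single listed products had 6 to 956 control reads and 9 to 759 ethanol reads.

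In both libraries the most abundant member was miR-92a-5p, at 69.8 and 57.8 CPM, followed by miR-92a-3p at 28.2 and 36.8 CPM and miR-92b-3p at 15.3 and 29.2 CPM. The intervals of these 3 levels did not overlap within the control. Within the ethanol library they did not overlap either, although miR-92a-3p (33.6 to 40.2 CPM) and miR-92b-3p (26.3 to 32.2 CPM) lay close. miR-312-3p came next with 4.24 and 6.86 CPM, and the other members had at most 2.26 CPM. In the order of all products, miR-92a-5p stood at place 97 of 233 in the control order and 102 of 228 in that of the ethanol library. miR-92b-3p stood at place 127 and 114. miR-310-3p, miR-312-5p, miR-313-5p, miR-92b-5p and miR-311-3p were the rarest in the ethanol library. miR-312-5p and miR-313-5p tied there at 13 reads, and the intervals of these 2, miR-92b-5p and miR-311-3p overlapped, so their order cannot be told at this depth.

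**Figure D2:**
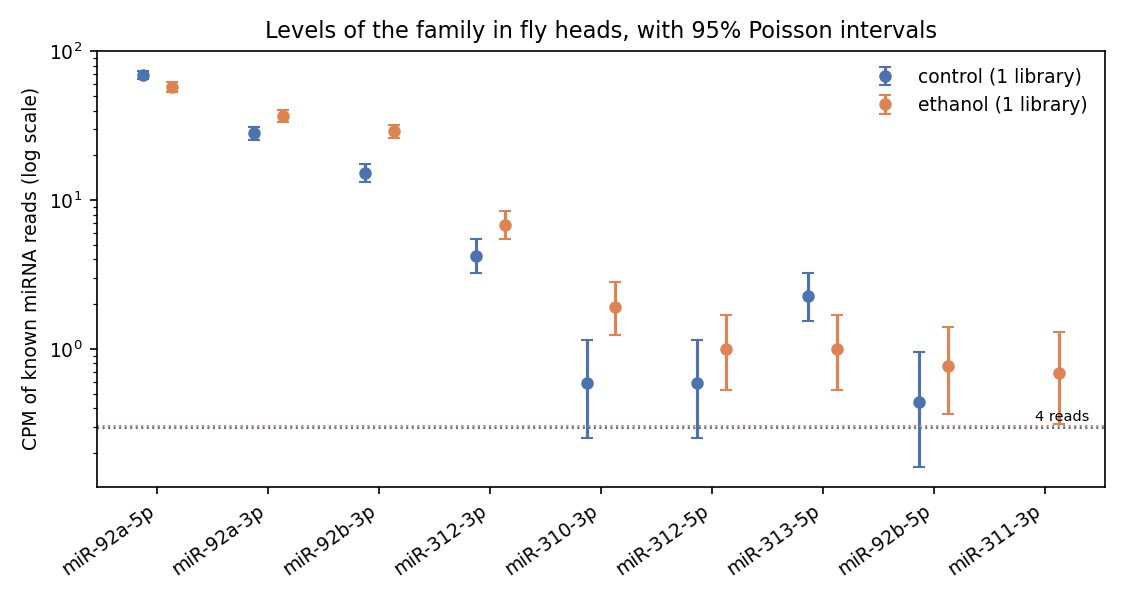
Level of each listed member in the control and the ethanol library, in CPM of known miRNA reads on a log scale. Points are single libraries, bars are exact Poisson 95% intervals, and dotted lines mark 4 reads, the highest count that would not be listed. The 3p members listed in both libraries stand higher in the ethanol library, and miR-92a-5p and miR-313-5p stand lower. The rare miR-92b-5p and miR-312-5p also stand higher there, with intervals that overlap between the libraries. The level intervals of miR-313-5p overlap between the libraries as well.

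The comparison of the libraries asked which members differed after the exposure. The seed pool was 1.56-fold higher in the ethanol library, with 661 and 990 reads (interval 1.41 to 1.73). Each of its 4 products listed in both libraries had a ratio above 1, and the fifth, miR-311-3p, was listed in the ethanol library alone. Of these, 3 had 100 reads or more when both libraries were added, and their median log2 ratio was 0.69. Over all 168 products with that many reads the median was -0.020, with quartiles of -0.28 and 0.32. Ratios above 1 were more common among 3p than 5p products in general, 61.2% of 85 against 36.1% of 83. Among the 145 seeds with at least 100 reads, this seed had the ratio of place 15 from the highest.

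A product with 100 reads or more was called different at a ratio of 2 or higher, or of 0.5 or lower. None of the 4 members with that many reads reached it, against 2.38% of the 168 products that were called higher and 1.19% called lower. With a minimum of 10 reads, 2 of 8 members passed, miR-310-3p higher and miR-313-5p lower, where 3.17% of 221 products were higher and 2.26% lower. These are small counts, and a low count can pass a fold threshold through counting error more easily than a high one.

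mir-92b gave the widest difference among the members with 100 reads. miR-92b-3p had 209 control and 383 ethanol reads, 15.3 CPM (13.3 to 17.5) and 29.2 CPM (26.3 to 32.2). The intervals of the levels did not overlap, and the ratio was 1.91 (1.61 to 2.27), so the 2-fold threshold lay inside its interval. Its log2 ratio of 0.93 was place 5 from the highest among 168 products. Its partner arm miR-92b-5p was rare, with 6 and 10 reads and a ratio of 1.74 (0.57 to 5.82). The 3p arm held 97.2% (94.0 to 99.0%) of the control reads of mir-92b and 97.5% (95.4 to 98.8%) of the ethanol reads. The odds of 3p against 5p changed by a factor of 1.10 (0.32 to 3.39).

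The arms of mir-92a lay on opposite sides of 1. Whether mir-92b differs in this cannot be told, since the interval of the rare miR-92b-5p held 1. The interval of the change in arm odds of mir-92b (0.32 to 3.39) also held the value for mir-92a given below. miR-92a-3p had 386 and 483 reads, 28.2 CPM (25.4 to 31.1) and 36.8 CPM (33.6 to 40.2), a ratio of 1.31 (1.14 to 1.50). miR-92a-5p had 956 and 759 reads, 69.8 CPM (65.5 to 74.4) and 57.8 CPM (53.8 to 62.1), and was 1.21-fold lower (1.10 to 1.33). The 3p reads were the smaller part of this hairpin in both libraries, 28.8% (26.4 to 31.3%) of its control reads and 38.9% (36.2 to 41.7%) of its ethanol reads. The odds of 3p against 5p were 1.58-fold higher (1.33 to 1.86) in the ethanol library, whatever scaling is used between the libraries. Of 61 hairpins with at least 100 reads on both arms, 26 had more 5p than 3p reads in both libraries. The arm odds moved towards 3p in 36 of the 61 (59%), and in 15 (24.6%) by at least as much as in mir-92a, which is included in that count.

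The 2 hairpins of the locus together had 1557 and 1635 reads, a ratio of 1.10 (1.02 to 1.17; 1.03, 0.96 to 1.11, under the authors' library totals), in which the lower miR-92a-5p, the most abundant product, is added to the higher 3p products. The balance between the 3p products differed between the libraries. miR-92a-3p outnumbered miR-92b-3p 1.85-fold in the control and 1.26-fold in the ethanol library, so the odds of miR-92b-3p against miR-92a-3p were 1.46-fold higher (1.17 to 1.83). These products differ at 4 of 22 positions, and how the counting treated reads that match both is not stated.

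**Figure D3:**
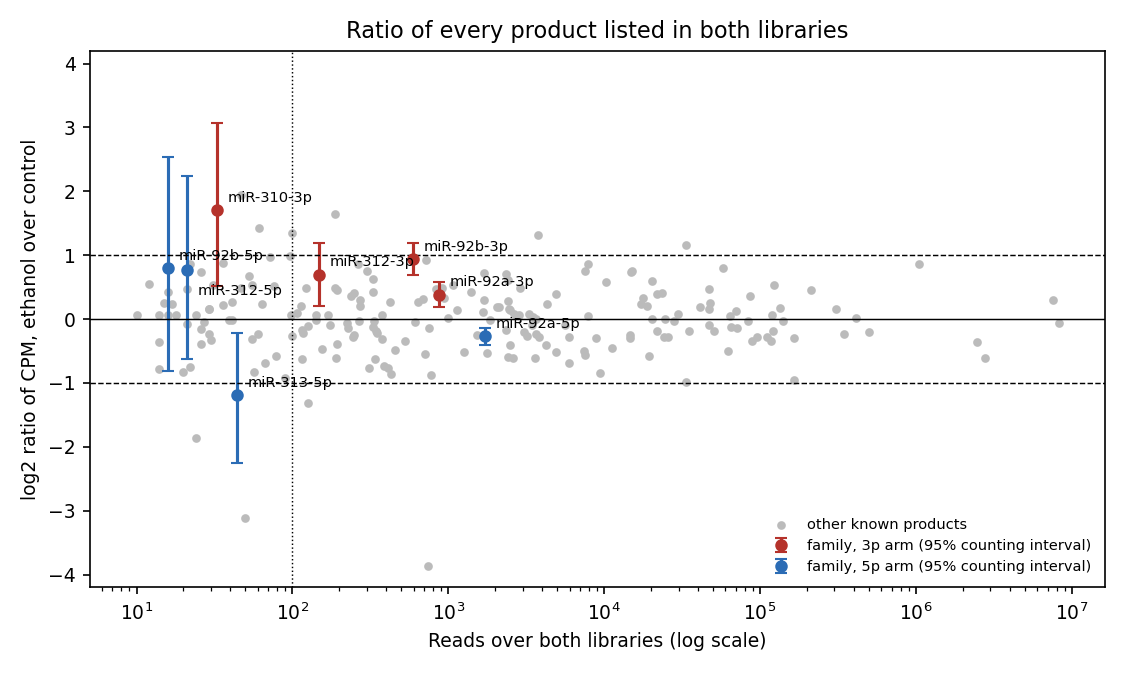
log2 ratio of CPM, ethanol over control, against the reads over both libraries (log scale) for every product listed in both. Grey points are products outside the family, coloured points are members with 95% counting intervals, dashed lines mark 2-fold and the dotted line 100 reads. The 3p members lie above 0, miR-92a-5p and miR-313-5p lie below, and the members past 2-fold have fewer than 100 reads. miR-92b-5p and miR-312-5p lie above 0 with intervals that hold it.

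The mir-310 cluster was rare in heads, with 105 control and 150 ethanol reads over 5 listed products, 7.67 CPM (6.27 to 9.28) and 11.4 CPM (9.67 to 13.4). Their sum had a ratio of 1.49 (1.15 to 1.93). Its 3p products had 66 and 124 reads (1.96, 1.44 to 2.68), with miR-311-3p, unlisted in the control, taken as 0 there. The most abundant of them was miR-312-3p, with 4.24 CPM (3.22 to 5.48) from 58 control reads, 6.86 CPM (5.51 to 8.43) from 90 ethanol reads, and a ratio of 1.62 (1.15 to 2.29). Its levels had intervals that did not overlap, by a narrow margin. miR-312-5p had 8 control and 13 ethanol reads, a ratio of 1.69 (0.65 to 4.72), and the 3p share of mir-312 was 87.9% and 87.4%.

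The other members of the cluster rested on few reads. miR-310-3p had 8 and 25 reads, 0.58 CPM (0.25 to 1.15) and 1.90 CPM (1.23 to 2.81), a ratio of 3.26 (1.43 to 8.36). miR-311-3p was not listed in the control and had 9 reads in the ethanol library, 0.69 CPM (0.31 to 1.30), and no ratio is given for it. miR-313-5p went the other way, with 31 and 13 reads, 2.26 CPM (1.54 to 3.21) and 0.99 CPM (0.53 to 1.69), and was 2.29-fold lower (1.16 to 4.76). The 5p arms of mir-310 and mir-311 and the 3p arm of mir-313 were listed in neither library, so miR-313-5p could not be set against its own partner arm. Against miR-312-3p of the same cluster, the odds of miR-312-3p over miR-313-5p were 3.67-fold higher (1.70 to 8.33) in the ethanol library. The odds of miR-310-3p over miR-312-3p were 2.01-fold higher, with an interval that held 1 (0.81 to 5.51).

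**Figure D4:**
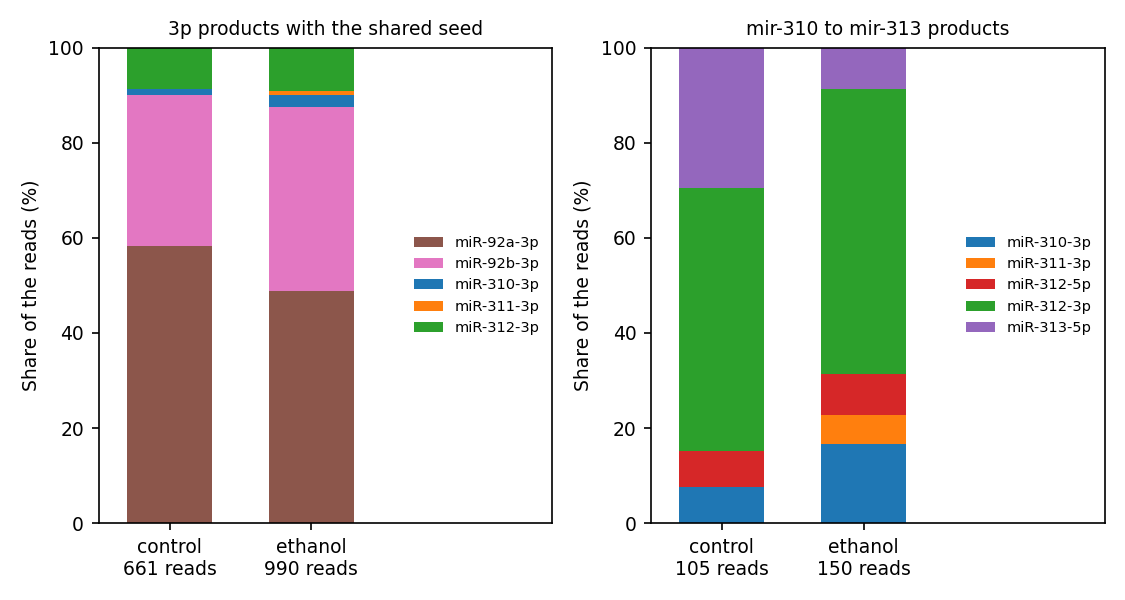
Make-up of the 3p products that share the seed (left) and of the mir-310 cluster (right) in each library, as a share of the reads in %, with the number of reads under each bar. In the left panel the share of miR-92a-3p is smaller in the ethanol library and that of miR-92b-3p larger; in the right panel miR-313-5p takes a smaller share in the ethanol library.

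Within the seed pool, the shares of the mir-92 products moved in opposite directions, although the levels of both were higher in the ethanol library. miR-92a-3p and miR-92b-3p held most of the pool between them, so their shares are not independent. miR-92a-3p made up 58.4% (54.5 to 62.2%) of the control pool and 48.8% (45.6 to 52.0%) of the ethanol pool. miR-92b-3p made up 31.6% (28.1 to 35.3%) and 38.7% (35.6 to 41.8%). miR-312-3p made up 8.77% (6.73 to 11.2%) and 9.09% (7.37 to 11.1%), and miR-310-3p 1.21% (0.52 to 2.37%) and 2.53% (1.64 to 3.71%). Within the mir-310 cluster, miR-313-5p made up 29.5% (21.0 to 39.2%) of control reads and 8.67% (4.70 to 14.4%) of ethanol reads.

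Base composition was set beside the members' ratios. Over the 164 compared products outside the family, the ratio was lower where the mature sequence held more guanines (Spearman's rho = -0.50, Pearson's r = -0.39, across miRNAs of the same pair of libraries, which are not replicates). miR-310-3p held 3 guanines, miR-92a-3p 4, miR-92b-3p 5 and miR-312-3p 6, whereas miR-92a-5p held 9 and miR-313-5p 10. The rare miR-312-5p and miR-92b-5p, whose intervals held 1, had 6 and 7. The members did not follow the order of their guanine counts throughout, since miR-92a-3p had a lower ratio than miR-92b-3p and miR-312-3p. Outside the family, products within 1 guanine of miR-92a-5p had a median log2 ratio of -0.31 (24 products), and miR-92a-5p had -0.27. Those within 1 guanine of miR-92a-3p had a median of 0.098 and quartiles of -0.14 and 0.44 (72 products), and miR-92a-3p, at 0.38, lay between the quartiles. For miR-92b-3p the median was 0.0039 and the upper quartile 0.29 (92 products), and its own log2 ratio of 0.93 lay above them. For miR-312-3p they were -0.12 and 0.11 (83 products) against 0.69. miR-310-3p, at 1.70, lay above the upper quartile of 0.59 (49 products), and miR-313-5p, at -1.19, below the lower quartile of -0.63 (9 products). The part of base composition in the members' ratios was not tested.

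**Figure D5:**
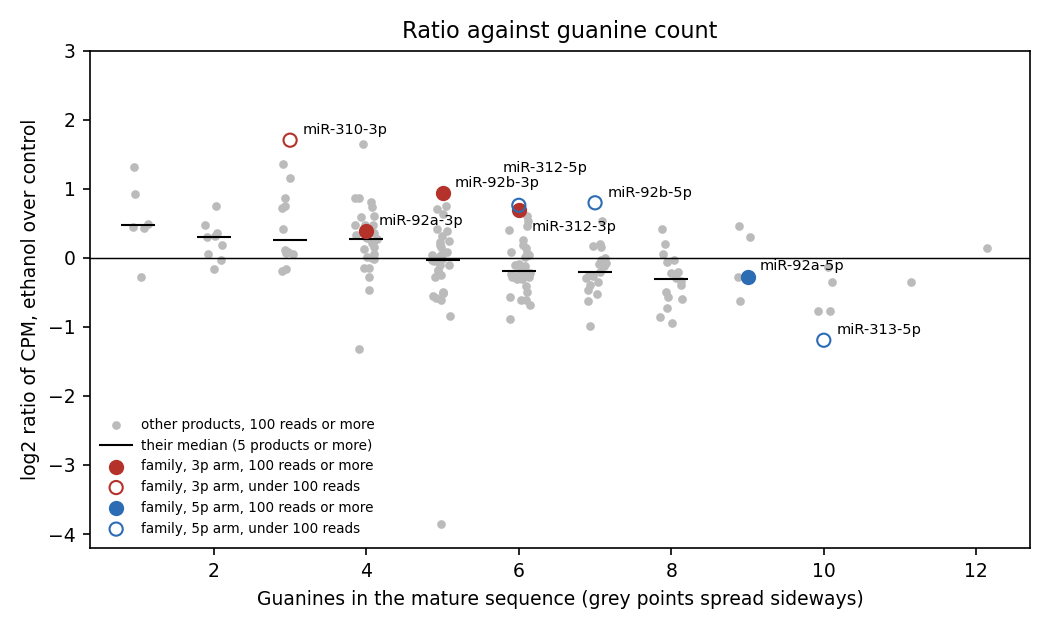
log2 ratio of CPM, ethanol over control, against the number of guanines in the mature sequence. Grey points are products outside the family with at least 100 reads, spread sideways for view, black bars their medians, and coloured points the members (open where under 100 reads). miR-92a-3p lies near the median of its guanine count, while miR-92b-3p and miR-312-3p lie above them. The point of miR-313-5p lies below products of like guanine count, but its counting interval, not drawn here, reaches them.

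Since the mir-310 cluster acts in the gonads, miRNAs of tissues that a sieved head sample might carry were set beside it. Of 3 ovary hairpins, mir-318 was listed in neither library. miR-989-3p had 23 and 32 reads (1.45, 0.82 to 2.60) and miR-994-5p was listed in the ethanol library alone, with 6 reads, so the ovary list summed to 1.68 and 2.89 CPM. The early embryo cluster summed to 184.0 and 143.8 CPM, almost all of it miR-5-5p with 2445 and 1779 reads (0.76, 0.71 to 0.81). The whole early embryo list had a ratio of 0.78. The other 7 listed products of the early embryo cluster had 75 and 109 reads in sum, a ratio above 1 (1.52, 1.12 to 2.06). The top product was left out in this way only for this list and the neural and photoreceptor list. Among these 7, miR-6-3p and miR-286-3p were picked out once their values were known. miR-6-3p had 10 and 37 reads (3.86, 1.88 to 8.70) and miR-286-3p 21 and 32 (1.59, 0.89 to 2.90). miR-5-3p also had more ethanol reads, 8 and 14. The rest had as many or fewer: miR-3-3p 8 and 8, miR-6-3-5p 14 and 13, miR-4-3p 9 and 5. miR-4-5p was listed in the control alone, with 5 reads. The ratio of the sum of the 7 therefore rested largely on miR-6-3p. Of 18 hairpins of the testis clusters 9 were listed, with 19.4 and 21.6 CPM in sum, led by miR-982-5p with 124 and 147 reads (1.24, 0.97 to 1.58). All flies were female, so those clusters cannot mark testis. The RNA integrity number was 6.80 for the control and 6.40 for the ethanol RNA. The part of other tissues and of RNA integrity in the ratio of the mir-310 cluster was not tested.

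Other miRNAs with roles near those of the family had ratios on both sides of 1. The lists share hairpins and are not independent, and mir-124 is in the neural, the synapse and the circadian list. In the synapse and excitability list 8 of 16 compared products were above 1, with a median log2 ratio of 0.0094 (-0.073 under the authors' library totals and below 0 also under DESeq2 size factors and without the 4 most abundant products), and its most abundant product, miR-34-5p, was 1.28-fold lower. In the circadian list, which holds mir-92a, 7 of 16 were above 1, with a median of -0.15, and its most abundant product, let-7-5p, was 1.52-fold lower. In the neural and photoreceptor list 12 of 18 were above 1, with a median of 0.061, but 7 of 18 and a median of -0.022 under the authors' library totals, and 7 of 18 and -0.061 without the 4 most abundant products. Of the muscle products 0 of 3 were above 1, with a median of -0.28, and miR-1-3p had a ratio of 0.96. No compared product of these 4 lists passed 2-fold in the main scaling. miR-124-3p, at a log2 ratio of -0.95, was past 2-fold lower under the authors' library totals and without the 4 most abundant products. Without those 4, miR-124-5p (-0.88 in the main scaling) was too. Over all 168 products 48.8% were above 1 (40.5% under those totals and 38.7% without the 4 most abundant products).

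The products with the log2 ratio nearest to that of miR-92a-3p, over 2 libraries and among 164 outside the family, were miR-9c-5p (0.39), miR-2b-3p (0.40) and miR-9c-3p (0.37). Nearest to miR-92b-3p were miR-954-3p (0.92), miR-276a-3p (0.87) and miR-252-3p (0.87). Their levels differed widely, from 7.01 CPM for miR-252-3p to 27778 CPM for miR-276a-3p in the control. With 2 libraries a like ratio is a weak measure of likeness.

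The authors' deposited table of 196 known miRNAs holds 6 members, and 2 of its 14 marked products are among them, miR-310-3p with a log2 ratio of 1.62 and miR-313-5p with -1.28. The authors' deposited table gives miR-92b-3p a log2 ratio of 0.85, miR-312-3p 0.61, miR-92a-3p 0.30 and miR-92a-5p -0.35. These ratios are of RPM, which is scaled to the whole library, and so lie lower than those of CPM given above. miR-92b-3p, miR-92a-3p and miR-92a-5p, which rest on more reads than the marked members, carry no mark. Among the 6 members, the 2 marked ones are those with a log2 ratio beyond 1 in size, so a missing mark here goes with a smaller ratio.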

How the data were processed

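Small RNA of 18 to 30 nt from fly heads was sequenced, 1 library per group. The authors deposited read counts per mature miRNA and candidate, a library total and RPM over that total, per the file headers. The lowest listed count was 5. Dividing the counts by the totals gave the deposited RPM to within 4.9e-05. The submitters' processing notes name BDGP5 as the genome build and no aligner, counter or miRNA release. A deposited comparison table holds the authors' log2 ratio and p-value; its test is not stated, and no p-value is printed.

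For 6 names listed more than once the largest count was kept, and a sequence listed under 2 names with equal counts was used once. Ratios of CPM carry exact conditional binomial (Clopper-Pearson) 95% intervals, levels exact Poisson intervals, shares Clopper-Pearson intervals and pairs of products exact conditional intervals of the odds ratio. Products were compared from 100 reads in the libraries' sum, with 2-fold as the threshold. The interval steps were tested on simulated Poisson counts. Such counts hold counting error alone, so the test checks the computation and not whether the intervals suit these libraries. Scaling alternatives came from edgeR 4.0.16 (TMM) and DESeq2 1.42.0 (size factors) in R 4.3.3. SciPy 1.17.1, numpy 2.4.6 and pandas 2.3.3 under Python 3.11.15 served for the rest. Every listed member is named, with the 3 products nearest in log2 ratio to miR-92a-3p and to miR-92b-3p, the top product of each list and all ovary markers. The members and the lists were chosen with earlier results of these data known. Hairpin positions came from Ensembl release 115 (BDGP6). Sequences of the mir-310 cluster are not printed.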

Additional observations from a re-analysis of the deposited data

How the results depend on the processing

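The ratios were recomputed with the authors' library totals, TMM, DESeq2 size factors, known reads less the 4 most abundant products, and summed counts for repeated names. None of the ratios of the 8 members or of the 3 sums changed its side of 1, but lists near 1 did. The seed pool ranged from 1.44 to 1.56, the mir-310 cluster from 1.37 to 1.49 (both also with unlisted products at 4 reads), miR-92b-3p from 1.76 to 1.91, miR-92a-3p from 1.20 to 1.31 and miR-92a-5p from 0.76 to 0.83. Leaving out the 4 most abundant products moved all log2 ratios by -0.12 and took the sum of mir-92a and mir-92b to 1.01 (0.94 to 1.08), against 1.10; under the library totals it was 1.03 (0.96 to 1.11), so under both its interval held 1. Chosen after seeing the data, the lists were also rescaled: without the 4 most abundant products 7 of 18 neural, 7 of 16 synapse, 5 of 16 circadian and 38.7% of all products lay above 1. No member with 100 reads passed 2-fold under any scaling; the number past 2-fold was 0 at 100 reads and 2 both at 10 reads and with no minimum, which adds miR-310-3p and miR-313-5p. The arm odds of mir-92a and the odds between miR-92a-3p and miR-92b-3p do not depend on scaling. Only the summed counts for repeated names were tried on them, which left both as they were. No paired analysis was possible because each group has 1 library, and for the same reason no replicate could be left out. Depth limits miR-92b-5p, miR-312-5p, miR-310-3p, miR-311-3p and miR-313-5p, none of which had more than 31 reads in a library.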
